A study of Mus musculus with 6 samples.

Results

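The 9 genes described here form the core of the transforming growth factor beta (TGF-β) pathway, and were taken by symbol from the table of gene counts as Tgfb1, Tgfbr1, Tgfbr2, Smad2, Smad3, Smad4, Smad7, Ski and Skil. All 9 were found among the 53278 genes of the table, and all 9 passed the filter on low counts that left 14361 genes for testing. The cells were type 2 innate lymphoid cells (ILC2s), sorted from the visceral adipose tissue of C57BL/6 mice aged 8 weeks as lineage-negative cells positive for CD45, ST2 and CD117. All mice had been given 3 intraperitoneal injections of 1 µg recombinant mouse IL-33, and all cells were cultured with IL-2 and IL-7 at 10 ng/mL each. One group was cultured with DTA-1 at 5 µg/mL, an agonistic antibody to the costimulatory receptor GITR, and the other with a rat isotype control antibody. The sample titles name this control isotype, while the headings of its count columns name it PBS. The labels give 48 h of culture, while the results text of the study gives a shorter time for the same experiment. Each group had 3 RNA libraries, made from 10 ng of RNA each. No source says whether the libraries came from separate mice or cultures, so p-values measure only the spread between these libraries, which may be technical.

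TGF-β1 is secreted as a latent complex, and once released it is bound by the type II receptor TGFBR2, which recruits and activates the type I receptor kinase TGFBR1. The activated receptor phosphorylates SMAD2 and SMAD3, which join SMAD4 and enter the nucleus to regulate genes. SMAD7 blocks the receptor, and the co-repressors SKI and SKIL (SnoN) hold SMAD complexes inactive, while Smad7 and Skil are themselves classical targets of the pathway. In lymphocytes the pathway is known for restraining activation and for shaping tissue residency, and ILC2s both make and sense TGF-β1.

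The total count ranged from 34557215 to 35131329 with isotype control and from 30569351 to 32492849 with DTA-1, so that a count of 0 allows up to 3 counts, or 0.0854 to 0.0981 CPM (counts scaled to the total of the library). The library labelled DTA-1 replicate 1 stood apart from its group. The chi-square of counts per degree of freedom between 2 libraries was 10.1 to 11.9 from this library to isotype control, against 29.1 and 30.6 to DTA-1 replicates 2 and 3, while the isotype control libraries lay 12.1 to 18.4 from each other. By the root mean square difference of log2 values it was 0.61 to 0.64 from isotype control, whose libraries were 0.59 to 0.60 from each other. It was 0.65 and 0.66 from DTA-1 replicates 2 and 3, so the gap was small by this measure. Whether this library is correctly labelled was not tested, and every group mean, fold change and p with all libraries rests on its label. The main results are therefore given with and without it. This library was singled out by its likeness to isotype control in these same counts. Leaving it out favors larger differences and smaller p-values, so tests without it, here and below, are descriptive. Of 14 ILC2 marker genes all 14 were tested, with a summed level of 12757 to 13771 normalized counts with isotype control, 13880 in DTA-1 replicate 1, and 17958 and 17259 in DTA-1 replicates 2 and 3, and Gata3 and Il1rl1 (ST2) lay between 1022 and 1716 in every library. Normalized counts are CPM after TMM scaling. Marker lists of other cells summed far lower. The highest sums were 57.1 for T cells (6 of 8 genes tested), of which Cd3g gave 36.2 to 48.6 and Cd8a had 0 counts, and 24.4 for endothelial cells (1 of 5 tested), nearly all from Pecam1 with Cdh5 at 0. The sums reached 18.2 for B cells (1 of 4 tested), with Ms4a1 at 0 and Cd79b giving 16.4 to 17.8, 12.2 for macrophages (3 of 10 tested), with C1qb at 0, and 0.454 for adipocytes (0 of 5 tested), with Lep and Cidec at 0. Of the platelet genes, of interest because platelets store TGF-β1, 2 of 5 were tested, and they summed to between 1.11 and 2.97 with isotype control and between 1.13 and 2.01 with DTA-1, with Gp1bb at 0. Of the fibroblast genes 5 of 10 were tested, and they summed to between 4.85 and 13.5 with isotype control and to 1.52, 0.448 and 6.09 in DTA-1 replicates 1, 2 and 3, with Dpt at 0.

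None of the 9 genes was differentially expressed by edgeR's quasi-likelihood test, which was called at a Benjamini-Hochberg adjusted p under 0.05 with a change of at least 1.5-fold. The count was 0 of 9 members, and 0% of all tested genes were called. DESeq2's Wald test, which called 0.0983% of all genes, and limma-trend also called 0 members. At an unadjusted p under 0.05 edgeR, DESeq2 and limma-trend each had 2 of the 9 genes (Tgfb1 and Smad2 by edgeR and DESeq2), against 7.22% of all genes by edgeR. By mean fold change 4 members were higher and 5 lower with DTA-1, with a median log2 fold change of -0.010, beside a median of -0.0078 over all tested genes. The median size of the log2 fold change was 0.093 in the 9 genes and 0.12 in all genes. The 95% interval of the fold change lay inside 1.5-fold in both directions for 7 members, against 58.9% of all tested genes. The intervals of Tgfb1 and Smad7 reached past 1.5-fold. Without DTA-1 replicate 1 the interval of Tgfb1 alone reached past it. In that comparison 0 of 9 members were differentially expressed, against 0.744% of 14911 genes, and 1 of 9 (Tgfb1) had an adjusted p under 0.05 at any fold, against 1.7% of genes. At an unadjusted p under 0.05 there were again 2 members, against 14% of genes.

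**Figure D1:**
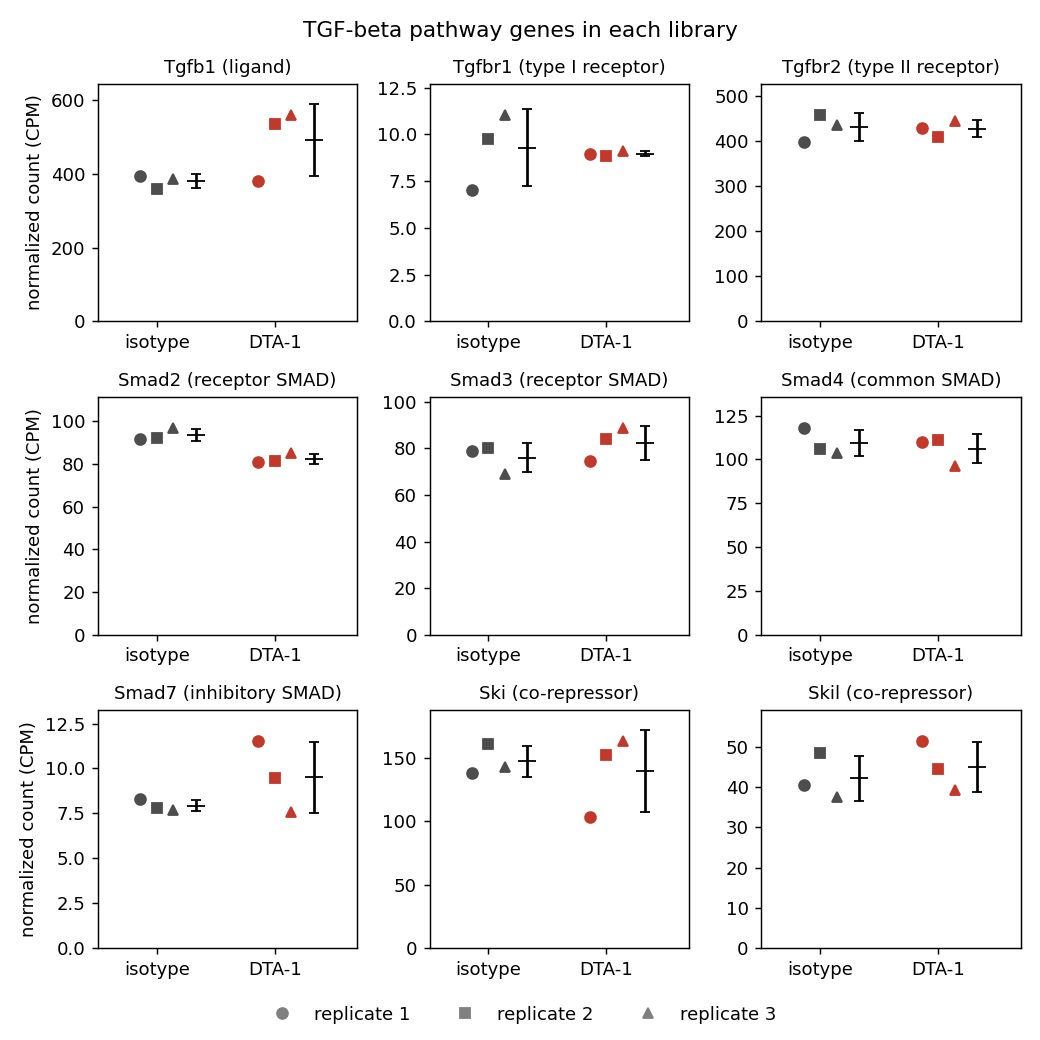
Normalized counts (CPM) of the 9 genes in each library, with isotype control in gray and DTA-1 in red; symbols mark replicates, and bars give the mean ± SD of 3 libraries. Tgfb1 is high in DTA-1 replicates 2 and 3 alone (535 and 561), Smad2 is lower in every DTA-1 library, and Ski is lowest in DTA-1 replicate 1 (103).

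Per length, the ligand and its type II receptor were the most abundant of the 9 transcripts and the type I receptor the least. Counts were divided by the length of all annotated exons of a gene, since levels of different genes can be compared only per length. Over the 6 libraries the mean was 86.5 normalized counts per kilobase for Tgfb1, 52.4 for Tgfbr2, 29.0 for Smad4, 25.8 for Ski, 14.3 for Smad3, 10.0 for Smad2, 4.50 for Skil, 1.93 for Smad7 and 1.40 for Tgfbr1. The median tested gene had 4.72. Tgfb1 lay at the 95.3 percentile of tested genes on this scale, Tgfbr2 at 91.6, Smad7 at 34.9 and Tgfbr1 at 30.3. The order was the same in every library except for Smad4 and Ski, whose ranges of 26.0 to 31.8 and 18.5 to 29.4 overlapped and which kept this order in 4 of 6 libraries. Smad7 (1.67 to 2.55) and Tgfbr1 (1.08 to 1.69) also had overlapping ranges, though Smad7 was above Tgfbr1 in each of the 6 libraries. These lengths count every annotated isoform, and a gene that uses few of its exons is set too low by them.

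**Figure D2:**
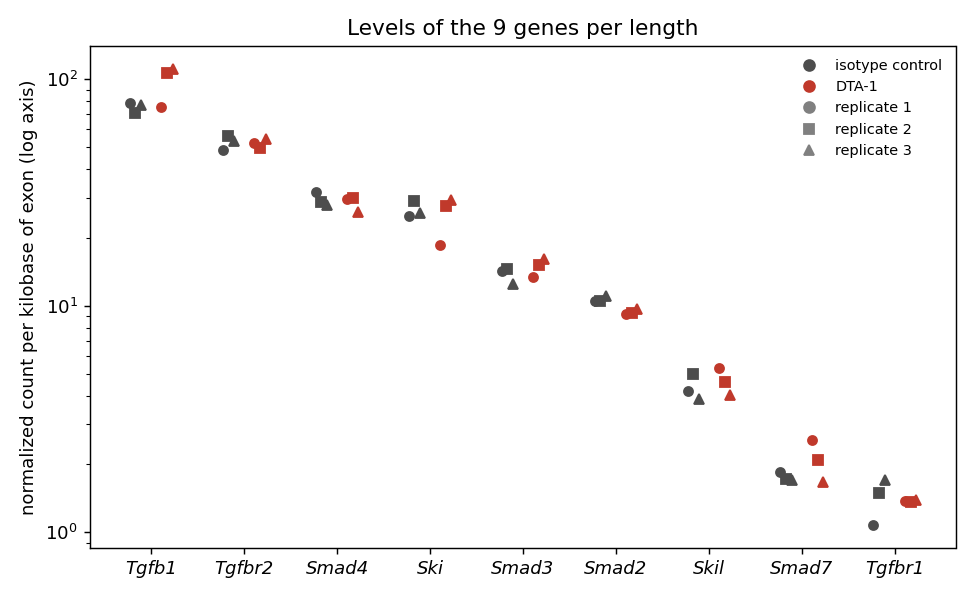
Normalized counts per kilobase of exon for the 9 genes on a log axis, ordered by their mean, with isotype control in gray and DTA-1 in red and 1 point per library. The means fall from 86.5 for Tgfb1 to 1.40 for Tgfbr1, and only the neighbors Smad4 and Ski, and Smad7 and Tgfbr1, have overlapping ranges.

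Tgfb1, which encodes the ligand TGF-β1 (GRCm38, chromosome 7, 25687002 to 25705077, plus strand), was higher in DTA-1 replicates 2 and 3 than in any other library. In the order of the replicates it had 395, 359 and 387 normalized counts with isotype control, then 381, 535 and 561 with DTA-1, and this order is kept for all genes. The groups overlapped, because DTA-1 replicate 1 lay inside the isotype control range. The means were 380 ± 18.6 and 492 ± 97.1 normalized counts (SD, n = 3 each), a 1.29-fold change with a 95% interval of 1.08 to 1.55. On the log2 scale this was 0.37 (standard error, SE, 0.12, edgeR adjusted p = 0.627). It was 0.53 when DTA-1 replicate 1 was left out (SE 0.060, edgeR adjusted p = 0.00245), or 1.44-fold with an interval of 1.31 to 1.58. Tgfb1 thus had an adjusted p under 0.05 in that comparison but did not reach the limit of 1.5-fold. The choice of the library left out favors a small p here. Its adjusted p lay between 0.00245 and 0.999 over the alternatives, and its log2 fold change between 0.27, without DTA-1 replicate 3, and 0.53. Among the ILC2 markers Il5 was also highest in the same DTA-1 libraries (9695 and 8899 normalized counts against 5063 to 5627 in the other 4) and made up most of the higher marker sum. Areg (334 and 317 against 188 to 194) and Il2ra (2741 and 2810 against 1952 to 2243) were also highest there. So was Il13 (108 and 88.8 against 64.0 to 75.3). Gata3 (1525 and 1607 against 1678 to 1716), Icos (99.0 and 98.4 against 156 to 173), Kit (75.8 and 80.8 against 98.8 to 129) and Arg1 (597 and 591 against 659 to 675) were lowest there. Il1rl1 (1021.7 and 1022.2 against 1096 to 1286) and Thy1 (10.3 and 9.16 against 11.0 to 11.7) were lowest there too. Il7r, Rora, Klrg1 and Ptprc did not split in this way. The part of these markers in the value of Tgfb1 was not tested. In these bulk libraries fewer cells that express a gene and less of its RNA per cell cannot be told apart.
Promoters of the members were searched for CAGAC, a letter group bound by SMAD3 and SMAD4, and for GGCGC, which SMADs also bind, on both strands (GTCTG and GCGCC). The stretch from before the start site to just after it was taken from RefSeq (GRCm38.p6) for Tgfb1, Tgfbr1, Tgfbr2, Smad3 and Ski, 5 of the 9 genes. Of 32851 such promoters 49.6% held CAGAC and 36.9% held GGCGC, and where the letters GGCGCC stood the forward and reverse forms of GGCGC overlapped. The promoter of Tgfb1, shown because this gene had the largest fold change of the 9, is chr7:25686752-25687051 on the plus strand, with 77.0% G and C. Capitals mark GGCGC or its reverse, found 245 bases before the start site and 20 bases after it, and CAGAC was not found.
Tgfb1: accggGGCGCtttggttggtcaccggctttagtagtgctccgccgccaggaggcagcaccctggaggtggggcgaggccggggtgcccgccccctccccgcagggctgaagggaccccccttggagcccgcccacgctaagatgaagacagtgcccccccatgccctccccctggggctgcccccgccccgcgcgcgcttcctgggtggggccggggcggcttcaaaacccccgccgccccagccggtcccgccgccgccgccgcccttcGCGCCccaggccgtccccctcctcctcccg

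The genes whose pattern over the 6 libraries was most like that of Tgfb1 had the same split among the DTA-1 libraries. Likeness was the root mean square difference of log2 normalized counts, each centered on its isotype control mean, over the 6 libraries and 4440 genes with a mean of at least 50 normalized counts, for which the median difference was 0.31. It was 0.033 for Pim3, which encodes a serine/threonine kinase, 0.042 for Ptgir, the prostacyclin receptor gene, and 0.049 for Irf2bp2, which encodes a transcriptional co-regulator. Ptgir had 274, 269 and 273 normalized counts with isotype control and 279, 391.8 and 389.6 with DTA-1. Pim3 had 43.1 to 47.7 with isotype control and 45.6, 67.7 and 66.0 with DTA-1, and Irf2bp2 had 182 to 194 and then 185, 251 and 275. These genes were picked for this likeness, and no test was made on it.

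The receptor transcripts differed little between the groups. Tgfbr2 (chromosome 9, 116084293 to 116175360, minus strand) had 398, 459 and 435 normalized counts with isotype control and 428, 408 and 446 with DTA-1, and the DTA-1 libraries lay within the isotype control range. The mean log2 difference was -0.010 (SE 0.069, edgeR adjusted p = 0.984). Its 95% interval, 0.894-fold to 1.10-fold, was the narrowest of the 9 genes together with that of Smad2. The biological coefficient of variation of Tgfbr2 was 0.0694, at the 8.6 percentile of tested genes, whose median was 0.126. Without DTA-1 replicate 1 the fold change was 0.991 (0.886 to 1.11). The type I receptor gene Tgfbr1 (chromosome 4, 47353222 to 47414931, plus strand) had 249, 342 and 390 counts with isotype control and 277, 276 and 290 with DTA-1. In normalized counts these were 7.04, 9.75 and 11.1 against 8.96, 8.84 and 9.10, so the DTA-1 libraries lay close together inside the range of isotype control. The change of Tgfbr1 was -0.050 on the log2 scale (SE 0.19, edgeR adjusted p = 0.970), and the interval was 0.719-fold to 1.30-fold.
Per kilobase, Tgfbr1 was at 0.0222, 0.0266 and 0.0318 of Tgfbr2 with isotype control and at 0.0262, 0.0271 and 0.0256 with DTA-1. The log2 ratio differed by -0.016 between the groups (two-sided exact permutation test, p = 0.9, where the smallest p that 3 libraries against 3 allow is 0.1).
The promoter of Tgfbr2 is shown because it held CAGAC, in capitals 160 bases before the start site. It lies at chr9:116175314-116175613 on the minus strand and has 59.0% G and C, and it held no GGCGC.
Tgfbr2: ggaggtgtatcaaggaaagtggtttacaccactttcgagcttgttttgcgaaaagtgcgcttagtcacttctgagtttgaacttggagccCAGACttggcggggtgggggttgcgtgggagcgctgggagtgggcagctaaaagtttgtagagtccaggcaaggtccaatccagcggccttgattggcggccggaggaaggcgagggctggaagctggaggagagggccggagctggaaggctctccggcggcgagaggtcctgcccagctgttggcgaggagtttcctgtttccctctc
The annotated start of Smad3 held neither letter group. A second start site of Tgfbr1 held 1 CAGAC, its first annotated start site held GGCGC 3 times, and that of Ski held it 7 times.

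**Figure D3:**
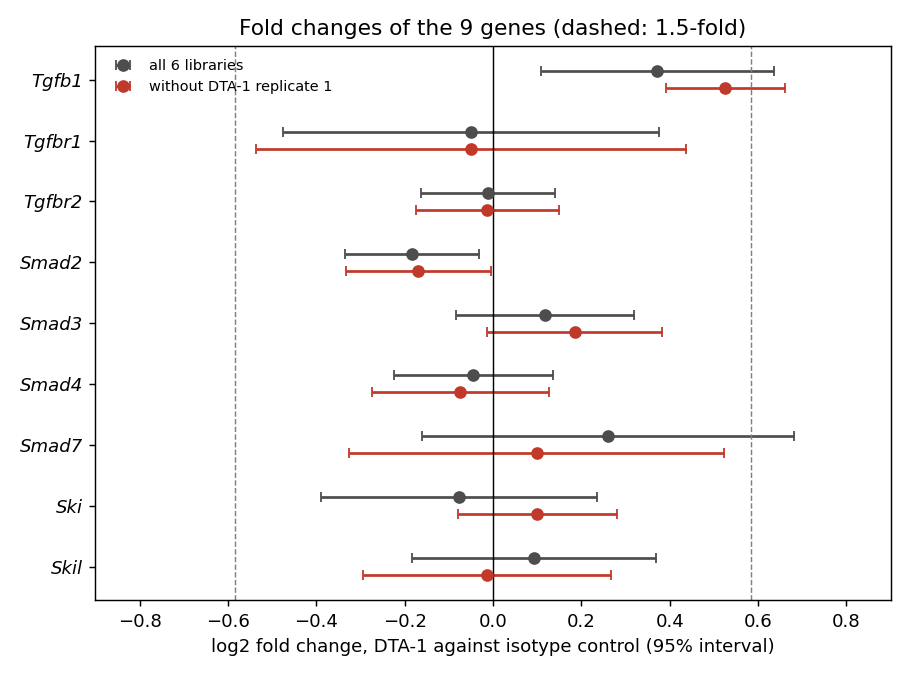
Log2 fold changes (DTA-1 against isotype control) of the 9 genes with 95% intervals, for all 6 libraries in gray and without DTA-1 replicate 1 in red; dashed lines mark 1.5-fold. With all libraries the intervals of Tgfb1 and Smad2 leave out 0, and those of Tgfb1 and Smad7 reach past 1.5-fold.

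The mean of Smad2 was lower and that of Smad3 higher with DTA-1 by small amounts, and neither passed the test. Smad3 (chromosome 9, 63646767 to 63757994, minus strand) had 78.9, 80.2 and 69.0 normalized counts with isotype control and 74.5, 84.1 and 88.7 with DTA-1. The 2 highest values were in DTA-1 replicates 2 and 3, while DTA-1 replicate 1 lay inside the isotype control range. This came to 0.12 on the log2 scale (SE 0.091, edgeR adjusted p = 0.814), and to 0.185 when DTA-1 replicate 1 was left out (SE 0.089, edgeR adjusted p = 0.394). Smad2 (chromosome 18) had 91.7, 92.2 and 97.0 normalized counts with isotype control and 80.9, 81.5 and 85.1 with DTA-1. Every DTA-1 library, DTA-1 replicate 1 included, lay below every isotype control library. Smad2 was the only member whose groups did not overlap, 1 of 9 lower and 0 of 9 higher, against 6.03% of all tested genes lower and 5.26% higher. Its means were 93.6 ± 2.89 and 82.5 ± 2.28 (SD, n = 3 each), which is -0.18 on the log2 scale (SE 0.069, edgeR adjusted p = 0.653), or 0.881-fold with an interval of 0.793 to 0.979. Leaving out each library in turn kept the log2 fold change of Smad2 between -0.21 and -0.16.
Smad4 (chromosome 18), which encodes the common partner, had 118, 106 and 104 normalized counts with isotype control and 110, 111 and 96.4 with DTA-1. The groups overlapped, and the fold change was 0.970 (interval 0.856 to 1.10, edgeR adjusted p = 0.940).
The ratio of Smad2 to Smad3 per kilobase within a library does not depend on how libraries are scaled. It was 0.734, 0.726 and 0.887 with isotype control and 0.685, 0.612 and 0.605 with DTA-1, lower in all 3 DTA-1 libraries. The log2 ratio was -0.36 ± 0.16 with isotype control and -0.66 ± 0.10 with DTA-1 (SD, n = 3 each), a difference of -0.30 with a two-sided exact permutation p of 0.1, the smallest that this design allows. With each library left out the difference was -0.36 to -0.21.

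The 3 inhibitors of the pathway had overlapping groups, and each was at an extreme in DTA-1 replicate 1. Smad7 (chromosome 18), the inhibitory SMAD, had 8.31, 7.78 and 7.71 normalized counts with isotype control and 11.5, 9.45 and 7.56 with DTA-1, from 241 to 356 counts per library. DTA-1 replicate 1 was the highest of the 6 libraries and DTA-1 replicate 3 the lowest. On the log2 scale Smad7 was higher by 0.26 (SE 0.19, edgeR adjusted p = 0.794), and 0.10 without DTA-1 replicate 1. Its interval, 0.895-fold to 1.603-fold, was among the widest of the 9, and a rise of 1.5-fold lies inside it.
Skil (chromosome 3, 31095058 to 31122577, plus strand) had 40.6, 48.4 and 37.6 normalized counts with isotype control and 51.4, 44.4 and 39.1 with DTA-1. The groups overlapped, with DTA-1 replicate 1 again the highest library. The log2 difference of Skil was 0.093 (SE 0.126, edgeR adjusted p = 0.909), and -0.014 without that library.
Ski (chromosome 4, 155154075 to 155222592, minus strand) had 138, 161 and 143 normalized counts with isotype control and 103, 153 and 163 with DTA-1. DTA-1 replicate 1 was the lowest library and DTA-1 replicate 3 the highest. For Ski the log2 difference was -0.077 (SE 0.14, edgeR adjusted p = 0.941), and 0.10 without DTA-1 replicate 1 (SE 0.080, edgeR adjusted p = 0.641).
Set against each other within a library, Skil was at 0.169, 0.172 and 0.151 of Ski per kilobase with isotype control, at 0.286 in DTA-1 replicate 1, and at 0.167 and 0.138 in DTA-1 replicates 2 and 3. Smad7 was at 0.129, 0.119 and 0.137 of Smad3 with isotype control, at 0.189 in DTA-1 replicate 1 and at 0.138 and 0.104 in the other two. Both ratios were highest in DTA-1 replicate 1. The group differences of the log2 ratios were 0.19 and 0.12 (two-sided exact permutation p = 0.9 and p = 0.7), and they were -0.11 and -0.10 without that library. DTA-1 replicate 1 was the highest or lowest library for 4 of the 9 genes (Smad7 and Skil highest, Ski and Smad2 lowest), and for 29.6% of all tested genes, the smallest share of the 6 libraries (29.6% to 37.1%).

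**Figure D4:**
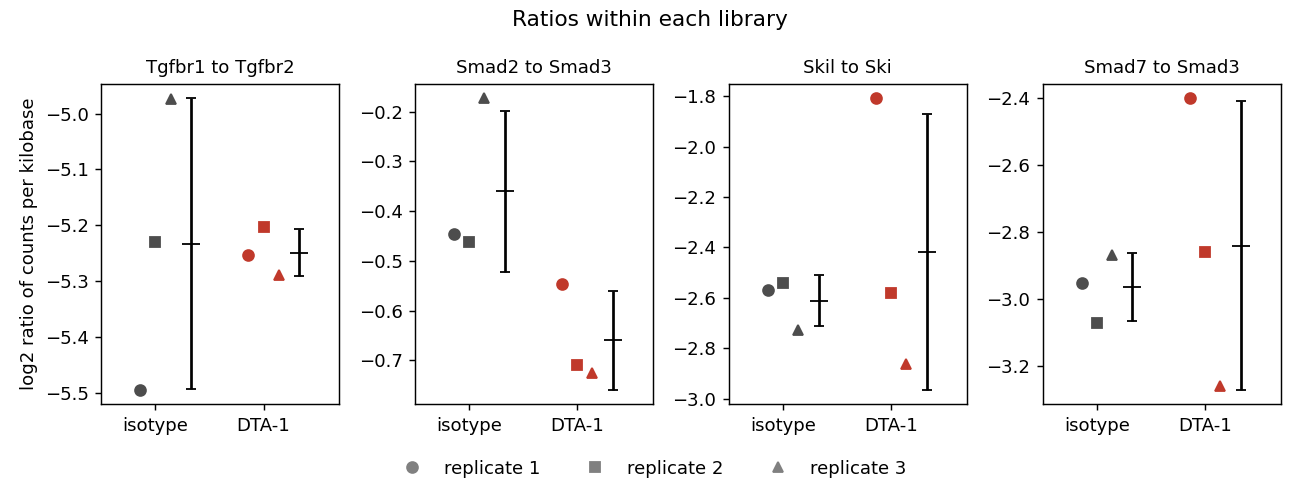
Log2 ratios of counts per kilobase within each library for 4 pairs of genes, with isotype control in gray and DTA-1 in red; bars give mean ± SD of 3 libraries, and the vertical axes differ. The Smad2 to Smad3 ratio is lower in all 3 DTA-1 libraries, and the Skil to Ski ratio is set apart in DTA-1 replicate 1 (-1.81 against -2.86 to -2.54).

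Of 54 other genes of the pathway 48 were tested. None of the 48 was differentially expressed by edgeR (0 genes, 6 at an unadjusted p under 0.05, against 7.22% of all tested genes, and 0 by DESeq2 and by limma-trend), 21 were higher and 27 lower, and the median log2 fold change was -0.031. Without DTA-1 replicate 1, 1 of 49 genes was differentially expressed, Furin, against 0.744% of all genes.
Furin encodes a protease that cleaves the TGF-β1 precursor, and it was the most abundant of 13 genes of ligands and latency per kilobase (187 normalized counts per kilobase). It had 1112, 1347 and 1318 normalized counts with isotype control and 1268, 2645 and 2617 with DTA-1. As for Tgfb1, DTA-1 replicate 1 lay inside the isotype control range and the other DTA-1 libraries above it. Furin was higher by 0.79 on the log2 scale (SE 0.27, edgeR adjusted p = 0.655), and rose by 1.06 when DTA-1 replicate 1 was left out (SE 0.076, edgeR adjusted p = 0.000115). Over the alternatives its adjusted p went from 0.000115 to 0.999. The antisense gene Gm44851 overlaps Furin and had a mean of 974 counts against 56380 for Furin.
Of this list 10 genes were tested, 3 higher and 7 lower, with 0 called. Nrros, which encodes a protein that tethers latent TGF-β1 to the cell surface, was the next most abundant, at 283 to 320 normalized counts with isotype control and 285 to 296 with DTA-1. Ltbp4, which encodes a latent TGF-β binding protein, had few counts, and its groups did not overlap. It had 76, 81 and 81 counts against 21, 8 and 59 (log2 fold change -1.27, edgeR adjusted p = 0.678), and the log2 fold change was -0.82 without DTA-1 replicate 2 and -2.26 without DTA-1 replicate 3. Thbs1, which encodes an activator of latent TGF-β1, was at 21.8 to 29.3 normalized counts and then 21.8, 33.0 and 43.6, 0.36 higher on the log2 scale (edgeR adjusted p = 0.748). For Thbs1 this was 0.58 without DTA-1 replicate 1 (edgeR adjusted p = 0.121) and 0.095 without DTA-1 replicate 3. The ligand gene Tgfb2 had 0 to 9 counts per library, and the integrin genes Itgb8 and Itgb6 had 0 to 9 and 0 to 1, and the filter removed all 3.

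Among other receptors of the superfamily, 9 of 10 genes were tested, 4 higher and 5 lower, with 0 called. Acvr1, a type I receptor gene of the activin and BMP branch, had 166, 137 and 141 counts with isotype control and 180, 221 and 222 with DTA-1. In normalized counts the groups did not overlap (log2 fold change 0.66, SE 0.21, edgeR adjusted p = 0.627). Acvrl1, which encodes the endothelial type I receptor ALK1, had 13, 26 and 7 counts against 31, 30 and 37 (edgeR adjusted p = 0.681), while the endothelial marker sum was 18.4 to 24.4 with isotype control and 18.3, 10.6 and 11.4 with DTA-1 and its part in this value was not tested. Acvr2a, the activin type II receptor gene, had 34.4 to 53.1 normalized counts with isotype control and 48.6, 31.5 and 30.6 with DTA-1, a log2 difference of -0.28 (edgeR adjusted p = 0.774). It was -0.53 without DTA-1 replicate 1 (edgeR adjusted p = 0.177), where the groups did not overlap, -0.44 without isotype control replicate 1, and between -0.18 and -0.15 without isotype control replicate 2 or without DTA-1 replicate 2 or 3. Eng, which encodes the co-receptor endoglin, was at 20.1 ± 3.81 and 20.6 ± 0.539 (SD, n = 3 each), and Tgfbr3 had 0 to 23 counts and was not tested. Acvr2a overlaps Orc4 and Eng overlaps Fpgs on the opposite strand, each with more counts, so both values are uncertain where counting did not use strand.
Of the 4 other SMAD genes 3 were tested and 0 called. Smad1 of the BMP branch was at 43.4 ± 3.52 normalized counts with isotype control and 43.2 ± 1.5 with DTA-1 (SD, n = 3 each), and Smad5 at 7.55 ± 0.40 and 8.48 ± 1.94.
Of the cofactor and co-repressor genes 9 of 10 were tested, 2 higher and 7 lower, with 0 called. The acetyltransferase gene Ep300 had 54.4, 44.3 and 51.1 normalized counts with isotype control and 44.0, 38.8 and 39.1 with DTA-1, with no overlap of the groups (log2 fold change -0.30, edgeR adjusted p = 0.632). Ncor1, a co-repressor gene, was at 306 to 326 against 277 to 300 (log2 fold change -0.12, edgeR adjusted p = 0.717). Tgif2, which encodes a repressor of SMAD2, was at 4.73 to 6.53 and then 5.08, 8.33 and 12.7, with the groups overlapping (log2 fold change 0.62, edgeR adjusted p = 0.702). The log2 fold change of Tgif2 was 0.89 without DTA-1 replicate 1 (edgeR adjusted p = 0.121) and 0.24 without DTA-1 replicate 3. On the opposite strand 5430405H02Rik overlaps Tgif2, with a mean of 170 counts against 237. The value of Tgif2 is thus uncertain where counting did not use strand. Hdac1 was at 237 ± 7.85 and 251 ± 13.5 (SD, n = 3 each).
All 12 genes of SMAD and receptor turnover were tested, 8 higher and 4 lower, with 0 called. The most abundant were Stub1, at 149 ± 10.3 and 146 ± 2.11 normalized counts, and Usp4, which encodes a deubiquitinase of TGFBR1, at 191 ± 12.8 and 202 ± 11.1 (SD, n = 3 each).
All 5 genes of the TAK1 branch, the kinase arm that runs beside the SMADs, were tested, and 0 were called. Map3k7, which encodes TAK1, was at 103 ± 5.54 and 113 ± 7.92 normalized counts, and Tab1, an activator of TAK1, at 32.4 ± 1.94 and 27.4 ± 2.79 with no overlap of the groups (SD, n = 3 each, edgeR adjusted p = 0.698). Tab2 was at 53.5 ± 4.01 and 46.7 ± 4.05 (edgeR adjusted p = 0.722).

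Target genes of TGF-β, listed from general knowledge, were not called with all libraries by edgeR. Of 20 genes 18 were tested, 11 higher and 7 lower, with a median log2 fold change of 0.067 and 0 called by edgeR (5 at an unadjusted p under 0.05 against 7.22% of all genes, 2 called by DESeq2 against 0.0983%, and 0 by limma-trend). Without DTA-1 replicate 1 there were 5 differentially expressed, Junb and Bhlhe40 higher and Id3, Ctgf and Col1a1 lower, against 0.744% of all genes. Many of these genes also answer to other signals, and the study had labelled Id3 and Ctgf on these same samples.
Junb, an AP-1 subunit gene, had 320, 296 and 340 normalized counts with isotype control and 321, 517 and 551 with DTA-1. It was higher by 0.54 on the log2 scale (SE 0.16, edgeR adjusted p = 0.627), and rose by 0.75 when DTA-1 replicate 1 was left out (SE 0.068, edgeR adjusted p = 0.000610). Bhlhe40, which encodes a helix-loop-helix repressor, had 237, 267 and 254 and then 261, 456 and 436. Its difference was 0.61 on the log2 scale (SE 0.17, edgeR adjusted p = 0.627), and 0.82 without that library (SE 0.064, edgeR adjusted p = 0.000204). Over the alternatives the adjusted p of Junb and Bhlhe40 reached 0.999. Junb overlaps Prdx2 on the opposite strand, with a mean of 6086 counts against 12886.
Id2 and Id3 encode inhibitors of differentiation. For Id3 the values were 53.5, 55.5 and 55.6 normalized counts with isotype control, then 59.0, 36.7 and 33.0. The log2 difference was -0.35 (SE 0.18, edgeR adjusted p = 0.722), and -0.65 when DTA-1 replicate 1 was left out (SE 0.096, edgeR adjusted p = 0.00960), with an adjusted p of up to 0.999 over the alternatives. Id2, needed for ILC development and the most abundant target per length (769 normalized counts per kilobase), had 1846, 1686 and 1827 and then 1765, 2134 and 1995, which is 0.14 higher on the log2 scale (SE 0.076, edgeR adjusted p = 0.738), or 0.21 without that library (SE 0.057, edgeR adjusted p = 0.127).
Cdkn2b, a cell cycle inhibitor gene, was at 3.96 to 6.27 with isotype control and 5.43, 10.4 and 9.0 with DTA-1 (log2 fold change 0.63, edgeR adjusted p = 0.664).
Ctgf, which encodes a matricellular protein, and the collagen gene Col1a1 had few counts. There were 40, 118 and 17 counts of Ctgf with isotype control against 0 in each DTA-1 library, at least 17.3-fold lower against a limit of 3 counts per library (at least 8.42-fold without isotype control replicate 2). Its edgeR adjusted p was 0.452, its DESeq2 adjusted p 0.000196, and its edgeR adjusted p without DTA-1 replicate 1 was 0.0391, with values up to 0.997 over the alternatives of both genes. Col1a1 had 60, 56 and 68 counts against 0, 9 and 3 (edgeR adjusted p = 0.491, DESeq2 adjusted p = 0.00426, and 0.0325 by edgeR without DTA-1 replicate 1). The summed fibroblast markers given above were lower with DTA-1 as well, with overlap of the groups, and Pdgfra and Fbn1 were at 0 in all DTA-1 libraries. Sparc had 183, 119 and 196 counts with isotype control against 20, 14 and 64 with DTA-1, and its groups did not overlap. Col1a2, Dcn and Postn had lower means with DTA-1, with overlap of the groups. Pdgfrb and Col3a1 did not follow in every DTA-1 library. Pdgfrb had 27 counts in DTA-1 replicate 1 against 0, 0 and 1 with isotype control. Col3a1 had 92 counts in DTA-1 replicate 3 against 57.3, 3 and 102 with isotype control. The part of these markers in the values of Ctgf and Col1a1 was not tested.

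**Figure D5:**
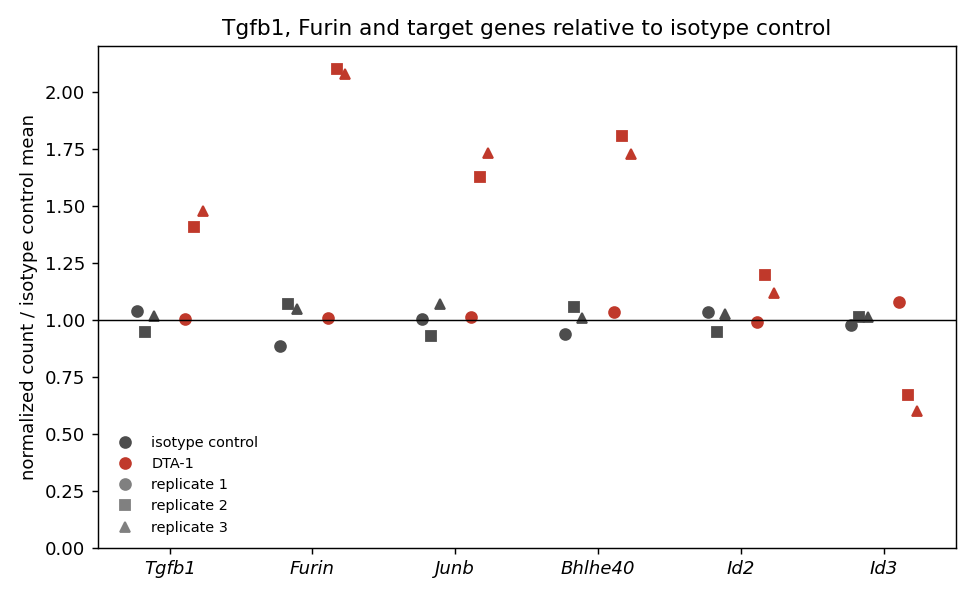
Normalized counts of Tgfb1, Furin and 4 target genes in each library, divided by the isotype control mean of the gene, with isotype control in gray and DTA-1 in red. DTA-1 replicate 1 lies at 0.988 to 1.08 for all 6 genes, while DTA-1 replicates 2 and 3 lie at 1.41 and 1.48 for Tgfb1, 2.10 and 2.08 for Furin and 0.669 and 0.601 for Id3. The 4 target genes are a part of those tested, and the rule that named them partly used the fit without DTA-1 replicate 1. The targets Ctgf and Col1a1, not shown, were lower than isotype control in DTA-1 replicate 1 as well.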

How the data were processed

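RNA was sequenced from 6 ILC2 libraries, 3 with isotype control and 3 with DTA-1. The authors aligned and quantified the reads per gene and deposited expected counts, which are estimates of the reads of a gene and had not been normalized. The submitters' processing notes name bcl2fastq 2.17.1.14, STAR 2.5.3a and Partek, with build mm10. Annotation release and strand setting are not given in the sources used here. The deposited gene ends were 1 base past those of GENCODE M21 (GRCm38). With this shift the coordinates of 47717 of 49719 symbols were equal in both, and exon lengths were taken from it. No other gene of the table overlapped a member.

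Expected counts were rounded. R 4.3.3 was used with edgeR 4.0.16 (filterByExpr, TMM, robust quasi-likelihood fits over all 14361 genes, no covariate), limma 3.58.1 and DESeq2 1.42.0, and Python 3.11.15 with pandas 2.3.3. Normalized counts are CPM after TMM. Standard errors came from the F statistic, and intervals have a level of 95%. Limits for a count of 0 use 3 counts and cover counting error only. The procedure was tested on simulated data with larger changes than those of the members, the same dispersion for every gene and no library that stood apart. That test cannot show whether changes as small as those of the members would be called. The members and lists were chosen with earlier results of these data known. Genes named beside the members had an unadjusted p under 0.05 with all libraries or without DTA-1 replicate 1, or were the 2 most abundant of their list per kilobase. The 3 genes with the pattern most like Tgfb1 were named because Tgfb1 had the smallest p of the members. One gene that met the rule is not reported here. The printed promoters were chosen after values were seen. The alternatives were other scalings, tests, filters and thresholds, a replicate block, and each library left out.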

Additional observations from a re-analysis of the deposited data

How the results depend on the processing

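The count of 0 members differentially expressed was kept under every alternative with the limit of 1.5-fold. It was 1 (Tgfb1) with an adjusted p alone and without DTA-1 replicate 1, a combination added after the data were seen, under which 253 genes, 1 other pathway gene and 5 target genes passed. With each library left out, 0 to 111 genes, 0 to 1 other pathway genes and 0 to 5 target genes were called, and the highest of each was without DTA-1 replicate 1. DESeq2's Wald test called 20 genes and 2 targets, no filter on counts gave 2 genes and 1 target, and an unadjusted p under 0.05 with at least 1.5-fold gave 337 genes, 5 other pathway genes and 4 targets. Same-numbered libraries were no more alike than others (correlations of deviations from -0.0069 to 0.015, against -0.014 to 0.016). These were taken over all tested genes, where noise in low counts weighs heavily, so they cannot exclude pairing. With the replicate number as a block 1 gene and 0 members were called. The signs of 5 members with small changes turned when a library was left out, in log2 fold changes of -0.21 to 0.094 for Tgfbr1, -0.061 to 0.038 for Tgfbr2, -0.081 to 0.019 for Smad4, -0.20 to 0.10 for Ski and -0.014 to 0.20 for Skil. The log2 ratio differences ran from -0.15 to 0.11 for Tgfbr1 to Tgfbr2, -0.11 to 0.42 for Skil to Ski and -0.10 to 0.33 for Smad7 to Smad3. The cause of these turns was not tested. Total counts in place of TMM moved the median log2 fold change of all genes from -0.0078 to -0.044 and turned the sign of no member. Tgfbr1 and Smad7 had the fewest counts of the 9 (241 to 390 per library) and the widest intervals.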
